A study of Mus musculus with 8 samples.

Results

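Smooth muscle cytoskeleton genes and serum-responsive matrix genes of activated fibroblasts were followed in cultured mouse spermatogonia. The set holds 9 genes of the 55421 in the count table, chosen by name: *Acta2*, *Tagln*, *Cnn1*, *Myl9*, *Tpm1* and *Tpm2* of the contractile cytoskeleton, and *Ankrd1*, *Thbs1* and *Fn1*. All 9 were among the 20477 genes that passed the filter on low counts. Spermatogonial stem cell (SSC) cultures of the C57BL/6XDBA/2 strain, F1 hybrids by the study's methods, begun from testes of 6-day-old pups, were grown on feeder cells (mouse embryonic fibroblasts from CF1 mice, arrested by irradiation) and treated for 2 days in 4 conditions of 2 libraries each. Veh was complete SSC medium, and RA was the same medium with 100 nM retinoic acid. NR was nutrient restriction, 10% complete medium in 90% EBSS (Earle's balanced salt solution, a buffer of salts and glucose), and NRRA was that medium with retinoic acid. The complete medium also holds serum at 10 µl per ml, so the restricted medium diluted serum and growth factors along with nutrients, and these cannot be told apart. The comparisons ask how nutrient restriction and retinoic acid, alone and combined, changed RNA levels.

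Smooth muscle alpha-actin, encoded by *Acta2*, forms actin filaments with transgelin (*Tagln*), calponin (*Cnn1*) and tropomyosins bound along them, and the regulatory light chain *Myl9* belongs to the myosin that pulls on them. Fibroblasts that take on these proteins are called myofibroblasts. Their genes are known targets of serum response factor (SRF), which with its cofactors MRTF-A and MRTF-B binds the CArG box, and of transforming growth factor beta (TGF-beta) signalling. *Ankrd1* and the matrix gene *Thbs1* are known targets of YAP, TAZ and their TEAD partners, which bind the MCAT element CATTCC. Spermatogonia are not known for a smooth muscle programme, whereas fibroblasts of feeder layers carry one, and bulk RNA does not separate these cells.

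Each library held between 19261333 and 30023585 counts. Levels are given in CPM, counts rescaled to a common library total adjusted by edgeR's TMM factors. Germ cell markers and fibroblast markers were both present in every library. The germ cell genes *Ddx4* and *Dazl* were at 131.4 to 190.6 CPM and 298.8 to 467.4 CPM, while *Col1a1*, the main collagen chain of fibroblasts, was at 3203 to 8110 CPM. *Stra8*, a retinoic acid target used as a check of the treatment, was at 1.14 and 1.51 CPM in Veh and at 631.6 to 957.5 CPM in the 4 libraries with retinoic acid.

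Reference promoter sequence, from 250 bases before to 50 bases after the RefSeq start (build GRCm38.p6), was matched for 6 of the 9 genes, *Acta2*, *Ankrd1*, *Cnn1*, *Myl9*, *Tpm1* and *Tpm2*. The windows were searched on both strands for the CArG box and for the MCAT letters CATTCC, which share no overlap in these windows. The CArG box was searched only in its strict form, CC, then 6 letters A or T, then GG. Boxes that deviate from this form or lie outside the windows were not searched. A CArG box was found in 1 of the 6, against 1.81% of the 27025 genes with a window, and CATTCC in 3 of the 6, against 16.6%. The letters TATAAA, searched on the gene's own strand, were in none of the 6 and in 9.77% of all genes. The matches are shown on the gene's strand because they place the letters of known regulators next to genes that moved in opposite directions, with the match in capitals (GGAATG is CATTCC read on the other strand).
Acta2, chr19:34255502-34255531, minus strand: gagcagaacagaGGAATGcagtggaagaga
Tpm1, chr9:67049252-67049281, minus strand: tggctgtcctaaGGAATGcggtcgcccccc
Ankrd1, chr19:36119950-36119979, minus strand: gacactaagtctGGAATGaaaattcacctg
Ankrd1, chr19:36120037-36120066, minus strand: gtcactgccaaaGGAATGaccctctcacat
Myl9, chr2:156775293-156775322, plus strand: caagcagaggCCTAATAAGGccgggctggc
The first capital lies 146 bases before the start in *Acta2*, 56 in *Tpm1*, 123 and 210 in *Ankrd1* and 161 in *Myl9*, counted from the RefSeq start. GENCODE M21 places the outermost start of these genes upstream of that one, by 217 bases for *Acta2*, 193 for *Tpm1*, 255 for *Ankrd1* and 44 for *Myl9*. The 4 CATTCC matches therefore lie in an annotated exon of a longer GENCODE transcript, and the CArG box of *Myl9* lies upstream of the gene in both annotations. These are matches of letters, and binding was not measured.

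Nutrient restriction raised *Acta2*, *Tagln* and *Myl9* and lowered *Ankrd1*, and retinoic acid added to it raised *Tpm1*. A gene was called at an adjusted p under 0.05 (edgeR's quasi-likelihood test, Benjamini-Hochberg over all genes tested) with a fold of at least 2. In NR against Veh, 4 of the 9 genes were called higher (*Acta2*, *Tagln*, *Myl9*, *Thbs1*) and 1 lower (*Ankrd1*), where 5.33% of all tested genes were called higher and 2.96% lower. In NRRA against Veh, 5 were called higher (*Acta2*, *Tagln*, *Cnn1*, *Myl9*, *Tpm1*) and 1 lower (*Ankrd1*), against 9.91% and 6.02% of all genes. In NRRA against RA, 4 were called higher (*Acta2*, *Tagln*, *Cnn1*, *Myl9*) and 1 lower (*Ankrd1*), against 4.61% and 3.68%.

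Retinoic acid by itself called none of the 9, against 4.74% of all genes higher and 2.75% lower, although 5 of the 9 had an adjusted p under 0.05 with smaller folds (edgeR), 6 had an unadjusted p under 0.05, and DESeq2 also called 0. In NRRA against NR, 1 was called higher (*Tpm1*) and 0 lower, against 4.56% and 4.14%. Adjusted p alone passed many genes in these data, 43.2% of all genes in RA against Veh, 43.9% in NR against Veh, 58.9% in NRRA against Veh, 43.4% in NRRA against NR, 40.3% in NRRA against RA and 13% in the interaction. The median log2 fold change of the 9 against Veh was 1.31 for NRRA, 0.86 for NR and -0.10 for RA, beside 0.03, 0.01 and -0.02 over all genes tested. The comparisons with Veh share the Veh libraries, so their values stand side by side and not as separate evidence.

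**Figure D1:**
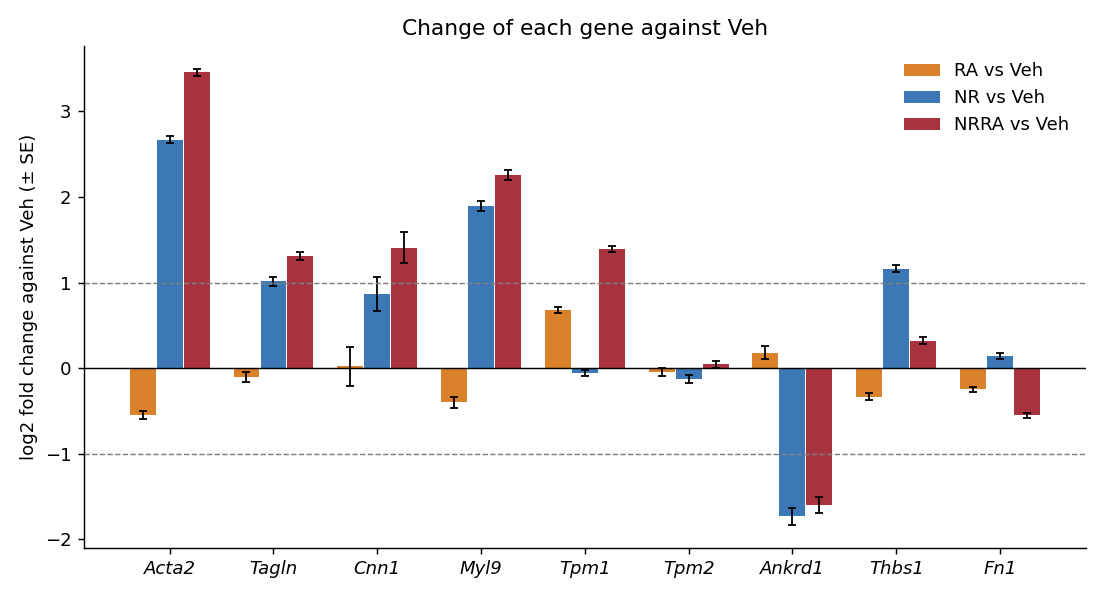
Log2 fold change of each of the 9 genes against Veh in RA, NR and NRRA (bars) with the standard error of the fit (whiskers), and dashed lines at a fold of 2. *Acta2* and *Myl9* were lower in RA and past the line in NR and NRRA, *Tpm1* passed it only in NRRA, and *Ankrd1* passed it downwards in both restricted media.

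*Acta2* lies on chromosome 19 (34241090 to 34255590, minus strand, build GRCm38) and had the largest fold of the 9 in NR and in NRRA against Veh. Its level was 80.6 and 79.5 CPM in Veh, 55.4 and 54.6 CPM in RA, 505.8 and 512.4 CPM in NR, and 878.6 and 878.1 CPM in NRRA. The 4 conditions did not overlap, and the order from low to high was RA, Veh, NR, NRRA. *Acta2* rose 6.36-fold in NR against Veh (log2 2.67, SE 0.04, adjusted p = 4.84e-25) and 10.97-fold in NRRA against Veh (log2 3.46, SE 0.04, adjusted p = 5.68e-28). With retinoic acid in both media compared, NRRA was 15.99-fold above RA (adjusted p = 1.22e-28). Its rank by CPM among all genes went from between 3350 and 4675 in complete medium to 181 and 185 in NR and to 64 and 65 in NRRA. In counts, *Acta2* took 0.0077% of the Veh 1 library and 0.0911% of the NRRA 2 library.

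*Myl9*, on chromosome 2 (156775420 to 156781658, plus strand), followed the same order of conditions. It was at 30.3 and 29.2 CPM in Veh, 22.2 and 22.8 CPM in RA, 110.6 and 111.4 CPM in NR, and 145.5 and 138.9 CPM in NRRA. It rose 3.73-fold in NR (log2 1.90, SE 0.06, adjusted p = 1.15e-19) and 4.78-fold in NRRA (log2 2.26, SE 0.06, adjusted p = 9.52e-22).

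*Tagln*, on chromosome 9 (45929619 to 45936058, minus strand), encodes an actin-binding protein that is a marker of early smooth muscle. Its level was 81.1 and 77.3 CPM in Veh, 76.4 and 71.4 CPM in RA, 155.6 and 164.1 CPM in NR, and 201.3 and 191.8 CPM in NRRA. Both restricted media lay above both complete media. Both RA libraries were below both Veh libraries, but the difference did not pass an adjusted p of 0.05 (edgeR, adjusted p = 0.132). *Tagln* rose 2.48-fold in NRRA (log2 1.31, SE 0.05, adjusted p = 1.24e-17) and 2.02-fold in NR (log2 1.01, SE 0.05, adjusted p = 7.98e-15). That NR fold sits at the threshold, with log2 values of 0.99 without Veh replicate 2 and 0.99 without NR replicate 2, so that 4 of the 9 genes are called without either library. *Gm48529*, on the opposite strand, shares 62.4% of the exon bases of *Tagln*, and its count was 97% to 98.7% of the *Tagln* count in every library. Reads of the pair therefore cannot be told apart by strand in this table.

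*Cnn1*, on chromosome 9 (22099216 to 22109630, plus strand), encodes calponin, a marker of contractile smooth muscle, and was scarce at 41 to 180 counts per library. It was at 2.18 and 2.14 CPM in Veh, 2.35 and 2.08 CPM in RA, 4.14 and 3.76 CPM in NR, and 6.43 and 5.07 CPM in NRRA. The restricted media lay above the complete media. *Cnn1* rose 2.65-fold in NRRA (log2 1.41, SE 0.18, adjusted p = 2.35e-07), and in NR its fold of 1.82 stayed under 2 (log2 0.86, SE 0.20, adjusted p = 0.000933).

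*Tpm1* and *Tpm2* encode tropomyosins, rods that lie along the actin filament. *Tpm1*, on chromosome 9 (67022590 to 67049406, minus strand), was at 380.5 and 390.8 CPM in Veh, 628.2 and 607.0 CPM in RA, 371.9 and 370.9 CPM in NR, and 1008 and 1019 CPM in NRRA. The libraries with retinoic acid were the high ones. Both NR libraries were below both Veh libraries, but the difference did not pass an adjusted p of 0.05 (log2 -0.05, SE 0.04, edgeR adjusted p = 0.263). *Tpm1* rose 2.73-fold in NRRA against NR (log2 1.45, SE 0.04, adjusted p = 7.55e-21) and 2.63-fold in NRRA against Veh (adjusted p = 5.22e-21). In RA against Veh its fold of 1.6 stayed under 2 (log2 0.68, SE 0.04, adjusted p = 8.64e-14).

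*Tpm2*, on chromosome 4 (43514711 to 43523765, minus strand), moved least. It lay between 107.3 CPM in NR 1 and 122.1 CPM in NRRA 1, and the complete and restricted media overlapped. Against Veh, NRRA was at 0.04 on the log2 scale (SE 0.05, adjusted p = 0.429), NR at -0.13 (SE 0.05, adjusted p = 0.0309) and RA at -0.04 (SE 0.05, adjusted p = 0.54), and the RA value turned positive under total-count scaling and under scaling on fibroblast markers. Both tropomyosin genes had their lowest mean in NR and their highest in NRRA, with means of 371.4 and 1013 CPM for *Tpm1* and 108.3 and 121.9 CPM for *Tpm2*. This is an order of means only. *Tpm1* in NR against Veh (edgeR adjusted p = 0.263) and *Tpm2* in NRRA against RA (0.156) did not pass an adjusted p of 0.05.

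**Figure D2:**
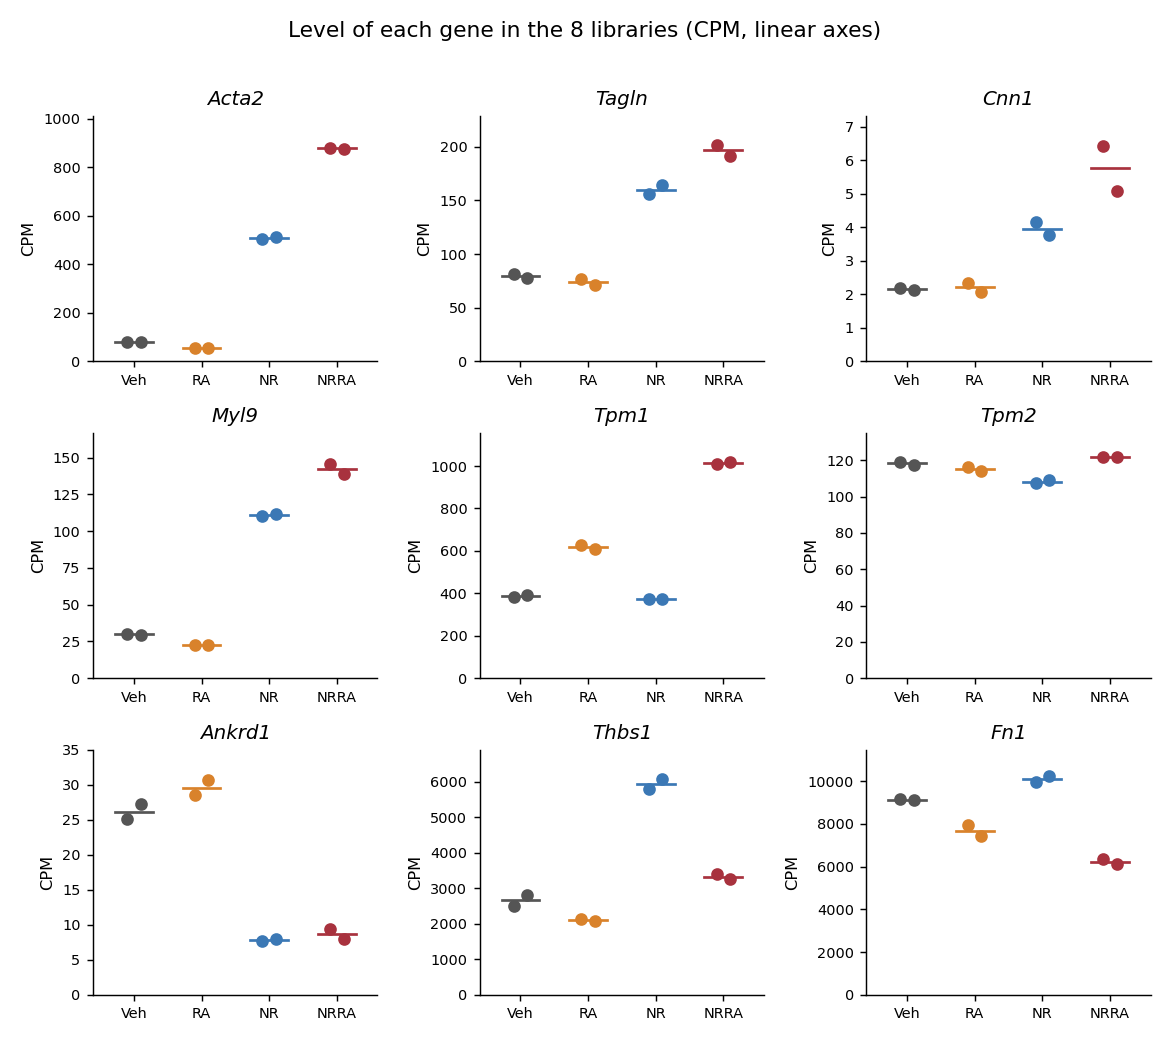
CPM of each gene in the 8 libraries, with points for libraries and bars for the mean of each condition of 2 libraries, on linear axes from 0 with a scale of their own. *Acta2*, *Tagln*, *Cnn1*, *Myl9* and *Thbs1* were higher in all 4 restricted libraries than in all 4 complete ones, *Ankrd1* was lower in all 4, and *Tpm1*, *Tpm2* and *Fn1* overlapped. The share of all tested genes that separate in this way was not counted, so the separation is a description and cannot be called particular to these genes.

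*Ankrd1*, on chromosome 19 (36111961 to 36120099, minus strand), encodes an ankyrin repeat protein of the sarcomere and nucleus that stretched or serum-fed cells make. It was at 25.1 and 27.2 CPM in Veh, 28.5 and 30.7 CPM in RA, 7.71 and 8.01 CPM in NR, and 9.40 and 7.96 CPM in NRRA. All 4 restricted libraries were below all 4 complete ones, opposite to *Acta2*. *Ankrd1* was 3.32-fold lower in NR than in Veh (log2 -1.73, SE 0.10, adjusted p = 7.61e-14) and 3.02-fold lower in NRRA (log2 -1.59, SE 0.09, adjusted p = 6.1e-14). NRRA and NR did not differ beyond their spread (log2 0.14, SE 0.11, adjusted p = 0.352). Both RA libraries were above both Veh libraries (log2 0.18, SE 0.08, edgeR unadjusted p = 0.0299). After adjustment over all genes that difference did not pass the threshold (edgeR, adjusted p = 0.0656). With libraries scaled on fibroblast markers, edgeR's adjusted p was 0.0042 for RA against Veh and 0.000299 for NRRA against NR.

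*Thbs1*, on chromosome 2 (118111876 to 118127133, plus strand), encodes thrombospondin, a secreted matrix protein that can activate latent TGF-beta. Its level was 2513 and 2808 CPM in Veh, 2150 and 2077 CPM in RA, 5812 and 6082 CPM in NR, and 3393 and 3253 CPM in NRRA. The order was RA, Veh, NRRA, NR, so the highest libraries were the restricted ones without retinoic acid. *Thbs1* rose 2.24-fold in NR (log2 1.16, SE 0.04, adjusted p = 2.95e-18), whereas its fold in NRRA against Veh was 1.25 (log2 0.32, SE 0.04, adjusted p = 1.68e-07). It was the 4th most abundant gene by CPM in both NR libraries and lay between ranks 7 and 15 elsewhere.

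*Fn1*, on chromosome 1 (71585520 to 71653200, minus strand), encodes fibronectin, the matrix protein that cells grip through integrins. It was at 9155 and 9098 CPM in Veh, 7950 and 7421 CPM in RA, 9951 and 10220 CPM in NR, and 6338 and 6115 CPM in NRRA. No fold of *Fn1* reached 2, and the complete and restricted media overlapped. It was lowest in NRRA, 1.47-fold below Veh (log2 -0.55, SE 0.03, adjusted p = 1.07e-13) and 1.62-fold below NR (log2 -0.70, SE 0.03, adjusted p = 2.26e-15). In NR its log2 fold change against Veh was 0.14 (SE 0.03, adjusted p = 0.000804), and with libraries scaled on fibroblast markers that value turned to -0.17 (adjusted p = 2.25e-05). *Fn1* ranked between 1 and 3 among all genes by CPM in every library and took 0.634% to 0.999% of all counts. The 9 genes together took 1.08% to 1.72% of a library.

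The response to retinoic acid differed between the media. *Acta2* was lower with retinoic acid in complete medium (log2 -0.54, SE 0.05, adjusted p = 5.55e-10) and higher with it under nutrient restriction (log2 0.79, SE 0.04, adjusted p = 2.1e-15). The difference between these responses, the interaction of retinoic acid and nutrient restriction, was 1.33 on the log2 scale (SE 0.06, adjusted p = 2.34e-14). *Acta2* was the only one of the 9 called in it, where 0.786% of all genes were called higher and 1.46% lower. *Myl9* also changed sign, from -0.40 (SE 0.07, adjusted p = 3.13e-05) to 0.36 (SE 0.05, adjusted p = 8.09e-07), with an interaction of 0.76 (SE 0.08, adjusted p = 2.5e-07) that stayed under the fold threshold.

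*Tpm1* was higher with retinoic acid in both media, with an interaction of 0.77 (SE 0.05, adjusted p = 5.5e-11). The matrix genes went the other way. *Thbs1* was lower with retinoic acid in complete medium (log2 -0.33, SE 0.04) and lower still under restriction (log2 -0.84, SE 0.04), with an interaction of -0.51 (SE 0.06, adjusted p = 3.78e-07). *Fn1* had an interaction of -0.45 (SE 0.05, adjusted p = 9.25e-08). For *Tagln* the interaction was 0.40 (SE 0.07, adjusted p = 0.000314) and for *Tpm2* 0.21 (SE 0.07, adjusted p = 0.0329). For *Cnn1* it was 0.52 (SE 0.27, adjusted p = 0.24) and for *Ankrd1* -0.05 (SE 0.14, adjusted p = 0.873), and no difference between media was detectable in either.

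**Figure D3:**
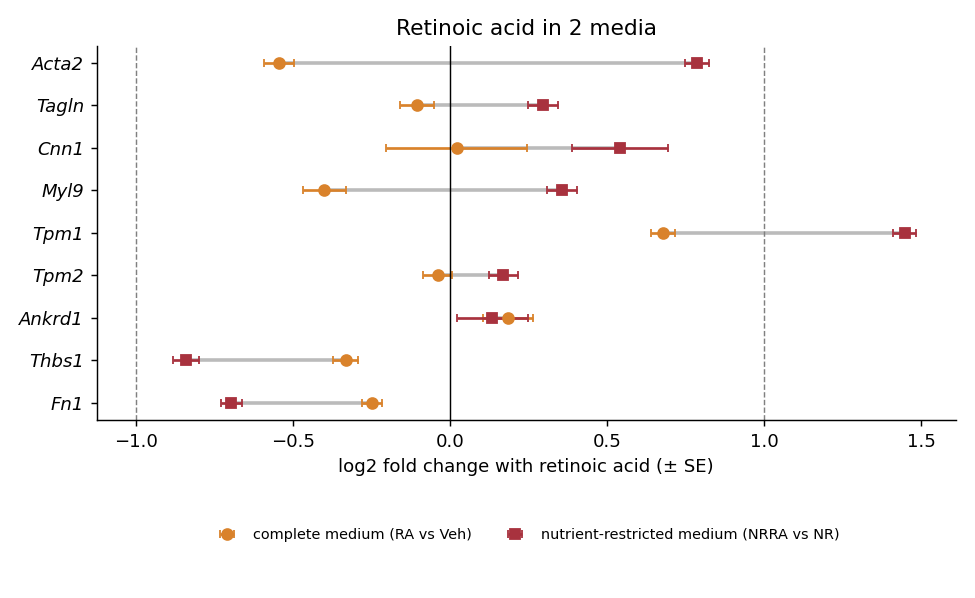
Log2 fold change with retinoic acid (± SE) of each gene in complete medium (circles, RA against Veh) and in nutrient-restricted medium (squares, NRRA against NR), with dashed lines at a fold of 2. *Acta2* and *Myl9* lie on opposite sides of 0 in the media, *Tpm1* is to the right and *Thbs1* and *Fn1* are to the left in both.

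Within their families, *Acta2*, *Tpm1* and *Tagln* held a larger share in NRRA than in Veh. Shares were computed on CPM per kilobase of exon (GENCODE M21 models), so that genes of different length could be compared. *Acta2* made up 2.19% and 2.25% of the summed actin level in Veh and 1.64% and 1.72% in RA. Under restriction this became 13.6% and 13.7% (NR) and 21.6% and 21.9% (NRRA). The cytoplasmic actin *Actb* was the largest throughout, with a mean share of 77.5% in Veh and 63% in NRRA, and its own log2 fold change in NRRA against Veh was -0.14 (SE 0.03, adjusted p = 0.00127). The enteric smooth muscle actin *Actg2* rose from a mean of 1.06 CPM in Veh to 5.27 CPM in NRRA (log2 2.30, SE 0.22, adjusted p = 1.11e-09). The skeletal actin *Acta1* fell from a mean of 3.45 CPM to 1.45 CPM (log2 -1.26, SE 0.22, adjusted p = 1.76e-05), and the cardiac actin *Actc1* was at 0 to 0.07 CPM and was not tested. Actin genes are near-identical in their coding parts, so reads that fit several of them make these shares uncertain.

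*Tpm1* made up a mean of 38.2% of the tropomyosin level in NRRA, against 18.2% in NR, 25.4% in RA and 16.1% in Veh, while *Tpm2* stayed between 10.2% and 11.8% and *Tpm3* went from 17.7% in Veh to 8.86% in NRRA. *Tpm4*, the largest in each condition, had a mean share of 55.2% in Veh and 42.7% in NRRA. *Tagln* made up 24.9% of the transgelin pair in Veh and 66.7% in NRRA, and its relative *Tagln2* fell (log2 -1.29, SE 0.05, adjusted p = 1.17e-18). *Cnn1* stayed a small part of the calponins, with a mean of 0.553% in Veh and 1.03% in NRRA. Its relatives had log2 fold changes in NRRA against Veh of 0.88 for *Cnn2* (SE 0.04, adjusted p = 2.86e-15) and 0.19 for *Cnn3* (SE 0.04, adjusted p = 0.000186), both under a fold of 2.

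**Figure D4:**
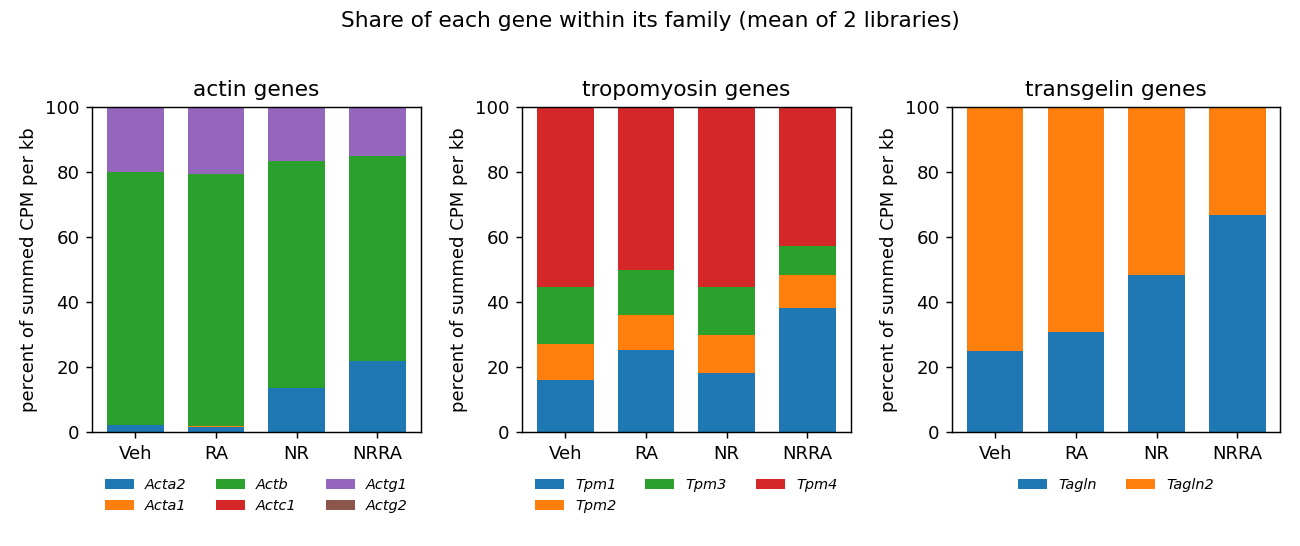
Mean share of each gene in the summed CPM per kilobase of its family, in percent, for the actins, tropomyosins and transgelins in the 4 conditions of 2 libraries. The lowest block is *Acta2*, *Tpm1* or *Tagln*, and each was largest in NRRA at 21.8%, 38.2% and 66.7%.

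By CPM per kilobase, the order of the 9 genes in Veh was *Fn1* (781), *Thbs1* (438.1), *Tpm1* (59.5), *Tpm2* (40.7), *Tagln* (39.8), *Acta2* (36.5), *Myl9* (25.6), *Ankrd1* (9.06) and *Cnn1* (0.789). In NRRA it was *Thbs1* (547.2), *Fn1* (532.9), *Acta2* (400), *Tpm1* (156.3), *Myl9* (122.4), *Tagln* (98.9), *Tpm2* (41.9), *Ankrd1* (3.01) and *Cnn1* (2.10). *Acta2* thus moved from the sixth place to the third, and *Thbs1* and *Fn1* changed places at the top. These are orders of means, and differences between neighbouring genes were not tested.

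Of 31 other contractile genes tested, 5 (16.1%) were called higher and 2 (6.45%) lower in NRRA against Veh, beside 9.91% and 6.02% of all genes, with a median log2 fold change of -0.03. In NR, 3 (9.68%) were called higher and 1 (3.23%) lower, beside 5.33% and 2.96% of all genes. The genes that rose most in NRRA were *Lmod1*, a leiomodin that starts actin filaments in smooth muscle (log2 3.64, SE 0.15, adjusted p = 3.27e-17), *Synpo2*, a Z-disc actin binder (log2 2.88, SE 0.10, adjusted p = 1.51e-18), and *Actg2*. *Lmod1* was at 1.34 and 1.77 CPM in Veh, 1.89 and 1.63 CPM in RA, 10.0 and 10.9 CPM in NR, and 20.3 and 18.5 CPM in NRRA. The order of conditions was Veh and RA together, then NR, then NRRA, as for *Tagln*.

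Of 3 SRF and MRTF factor genes tested, 0 were called in any comparison. Of all genes, 5.33% were called higher and 2.96% lower in NR against Veh, and 9.91% and 6.02% in NRRA. So few genes do not describe the pathway. *Srf* itself was at 80.0 and 66.4 CPM in Veh, 51.5 and 46.3 CPM in RA, 69.9 and 74.8 CPM in NR, and 50.7 and 48.7 CPM in NRRA, lower with retinoic acid in both media by less than 2-fold (log2 -0.59 in RA against Veh, adjusted p = 2.33e-07, and -0.54 in NRRA against NR, adjusted p = 3.71e-07). *Mrtfa* had a log2 fold change of -0.26 (adjusted p = 0.000257) and *Mrtfb* 0.45 (adjusted p = 3.69e-09) in NRRA against Veh. *Myocd*, the smooth muscle and heart cofactor of SRF, was at 0.10 to 0.39 CPM, too low to test.

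Of 20 TGF-beta pathway genes, 4 (20%) were called higher and 1 (5%) lower in NR against Veh, beside 5.33% and 2.96% of all genes. In NRRA, 3 (15%) were called higher and 4 (20%) lower, beside 9.91% and 6.02%. The 3 ligands differed. *Tgfb2* rose from 10.2 and 9.80 CPM in Veh to 34.8 and 35.4 CPM in NR and 101.3 and 105.4 CPM in NRRA, with 11.8 and 10.6 CPM in RA (log2 3.37 in NRRA against Veh, SE 0.07, adjusted p = 3.77e-23). Its conditions stood in the order Veh and RA, NR, NRRA, with an interaction of 1.40 (SE 0.12, adjusted p = 1.94e-09). *Tgfb3* rose most in NR (log2 1.64, SE 0.06, adjusted p = 2.17e-17), and *Tgfb1* fell in NRRA (log2 -1.40, SE 0.05, adjusted p = 4.24e-18). *Tgif1*, a corepressor of SMAD proteins, fell in NRRA (log2 -2.01, SE 0.06, adjusted p = 1.62e-20), and the matrix gene *Postn* rose (log2 1.6, SE 0.06, adjusted p = 8.52e-19).

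Of 13 YAP and TEAD genes, 2 (15.4%) were called higher and 1 (7.69%) lower in both NR and NRRA against Veh, beside 5.33% and 2.96% of all genes in NR and 9.91% and 6.02% in NRRA. *Ccn2* rose (log2 1.11 in NR, SE 0.05, and 1.17 in NRRA, SE 0.05) and so did *Amotl2* (log2 1.5, SE 0.04, and 1.41, SE 0.04), while *Tead4* fell (log2 -1.0, SE 0.17, and -1.07, SE 0.16). *Ankrd1* fell in media in which 2 other targets of the same factors rose. *Axl*, also in this list, was lower in both, with means of 553.6 CPM in Veh, 433.6 CPM in NR and 346.2 CPM in NRRA. Another target, *Ccn1*, had log2 fold changes of 0.14 in NR and -0.17 in NRRA (SE 0.04 each). The activity of these factors was not tested. Of the factors, *Yap1* was at -0.26 (SE 0.04) and *Wwtr1*, which encodes TAZ, at -0.87 (SE 0.05) on the log2 scale in NRRA against Veh, both under a fold of 2.

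Of 15 relatives and receptors of fibronectin and thrombospondin, 0 were called higher and 2 (13.3%) lower in NR, beside 5.33% and 2.96% of all genes. In NRRA, 2 (13.3%) were called higher and 4 (26.7%) lower, beside 9.91% and 6.02%. *Sdc4*, a heparan sulphate receptor of fibronectin, fell in NRRA (log2 -2.27, SE 0.05, adjusted p = 1.04e-23), as did the matrix gene *Tnc* (log2 -2.04, SE 0.04, adjusted p = 4.13e-25) and the integrin *Itgb3* (log2 -1.5, SE 0.05, adjusted p = 3.08e-19). Their patterns over the conditions differed. Mean CPM in Veh, RA, NR and NRRA was 499, 178.6, 463 and 103.5 for *Sdc4*, low in both media with retinoic acid. It was 9513, 8345, 5417 and 2318 for *Tnc* and 173.8, 172.7, 37.0 and 61.3 for *Itgb3*, lower in both restricted media. *Itga5*, which pairs with *Itgb1* as the main fibronectin receptor, fell (log2 -1.32, SE 0.04, adjusted p = 2.49e-19), and *Itgb1* was at -0.54 (SE 0.04). The relative *Thbs2* was at 0.56 in NR (SE 0.04) and 0.50 in NRRA (SE 0.04), close values where those of *Thbs1* were 1.16 and 0.32.

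**Figure D5:**
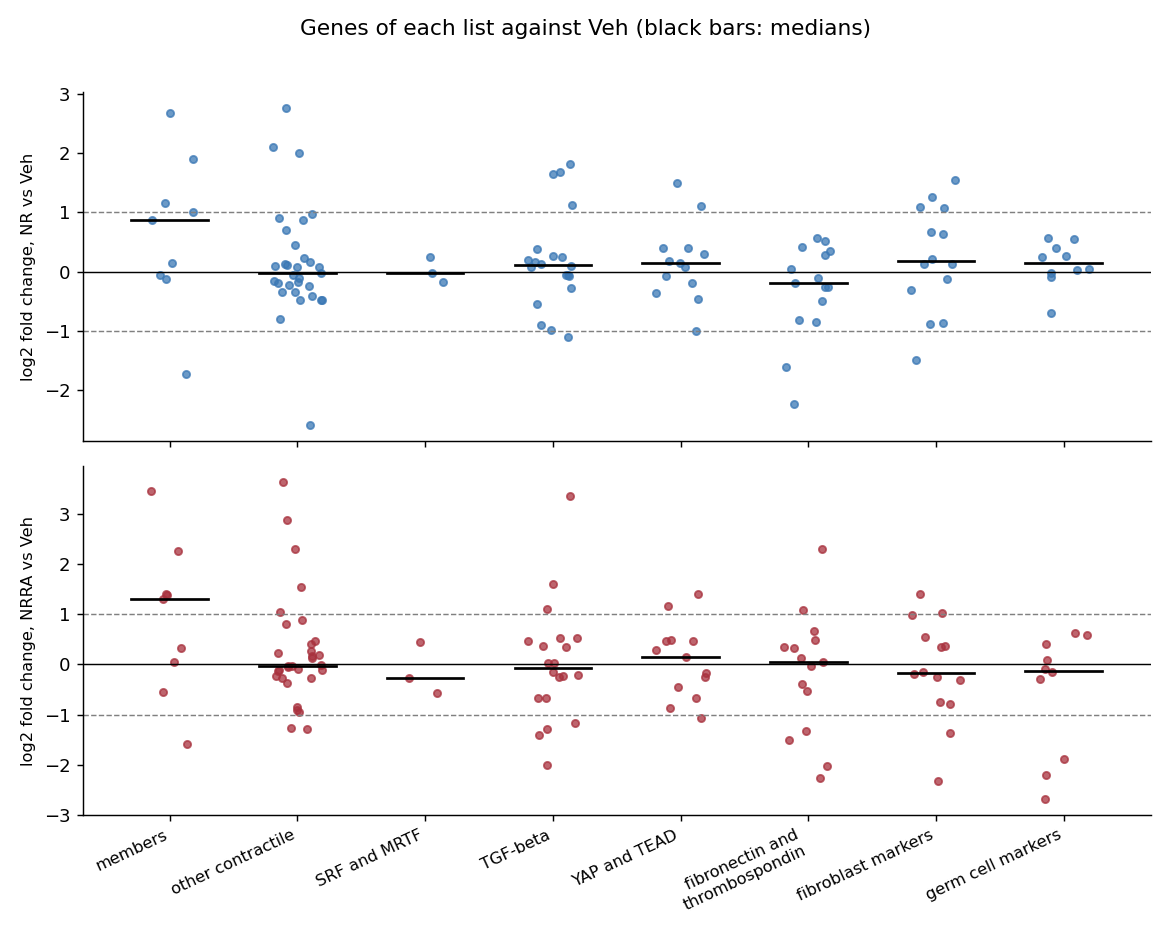
Log2 fold change of every tested gene of each list in NR (upper panel) and NRRA (lower panel) against Veh, with points for genes spread sideways for legibility, black bars for medians and dashed lines at a fold of 2. The 9 members had medians of 0.86 and 1.31, and the other contractile genes had medians of -0.01 and -0.03.

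Fibroblast markers moved in both directions. Of 14 markers, 4 (28.6%) were called higher and 1 (7.14%) lower in NR against Veh, beside 5.33% and 2.96% of all genes. In NRRA, 2 (14.3%) were called higher and 2 (14.3%) lower, beside 9.91% and 6.02%, and by adjusted p alone 6 were higher and 8 lower. Their summed level was 11420 and 11640 CPM in Veh, 10160 and 9477 CPM in RA, 20630 and 21730 CPM in NR, and 19100 and 18520 CPM in NRRA. The sum was 1.84 times that of Veh in NR and 1.63 times in NRRA, and collagen genes carried most of it. *Col3a1* rose in NRRA (log2 1.41, SE 0.04, adjusted p = 1.46e-20), as did *Col1a1* (log2 1.02, SE 0.04, adjusted p = 3.75e-18), while *Vim*, the intermediate filament gene of fibroblasts, fell (log2 -1.37, SE 0.04, adjusted p = 3.79e-21). *S100a4*, a fibroblast marker present at 0.46 to 3.22 CPM, also fell in NRRA (log2 -2.32, SE 0.27, adjusted p = 2.7e-08) and was at -0.87 in NR (SE 0.23, adjusted p = 0.00282), and *Gm42674* on the same strand shares 51.7% of its exon bases. None of the 14 was at 0 in any library. The median marker was at 0.18 in NR and -0.17 in NRRA on the log2 scale. In bulk libraries, more cells of a type and more RNA per cell cannot be told apart, and the part of feeder cells in these changes was not tested.

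With libraries scaled on the median ratio of the 14 markers, *Acta2* was at 2.36 in NR and 3.50 in NRRA against Veh on the log2 scale, *Myl9* at 1.59 and 2.30, and *Ankrd1* at -2.04 and -1.55, all still called. The NR calls of *Tagln* (log2 0.70) and *Thbs1* (log2 0.85) were lost under that scaling, which shifted the median of all genes to -0.31 in NR. The *Acta2* rise in NRRA against NR then passed the fold threshold (log2 1.14).

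Germ cell markers had 0 of 10 called in NR, beside 5.33% of all genes higher and 2.96% lower, and 6 of them had an adjusted p under 0.05 (edgeR). In NRRA 0 were called higher and 3 (30%) lower, beside 9.91% and 6.02%, with summed levels of 1269 to 1280 CPM in Veh, 1137 to 1193 CPM in RA, 1409 to 1430 CPM in NR and 1159 to 1176 CPM in NRRA. In RA against Veh, 2 (20%) were called lower and 0 higher, beside 2.75% and 4.74%. The genes that fell in NRRA were *Etv5* (log2 -2.68), *Zbtb16* (log2 -2.21) and *Gfra1* (log2 -1.90), markers of undifferentiated spermatogonia. Mean CPM in Veh, RA, NR and NRRA was 163.6, 31.8, 243.7 and 35.4 for *Zbtb16*, which was thus already low in RA. It was 179.4, 102, 110.7 and 27.9 for *Etv5*, and 101.1, 75.7, 104.3 and 27.2 for *Gfra1*. Summed markers of Sertoli cells (17.0 to 51.0 CPM), Leydig cells (5.81 to 15.2 CPM), endothelium (8.93 to 18.3 CPM) and striated muscle (26 to 41.5 CPM) were low in every library. *Amh*, *Insl3*, *Lhcgr* and *Myod1* were at 0 to 0.32 CPM, while *Sox9* reached 37.5 CPM, *Star* 13.7 CPM and *Ttn* 21.5 CPM. In NRRA against Veh, 1 of 5 endothelial markers (20%) was called higher and 3 (60%) lower. Of 6 Sertoli markers, 1 (16.7%) was called each way, as was 1 (25%) of 4 striated muscle markers. Of all genes, 9.91% were called higher and 6.02% lower. *Sox9* (log2 -2.16), *Pecam1* (-1.44), *Cdh5* (-1.21) and *Vwf* (-1.21) fell and *Ttn* (1.77) rose. Mean CPM in Veh and in RA alone was 31.9 and 14.7 for *Sox9*, 6.83 and 4.55 for *Pecam1* and 4.59 and 4.09 for *Cdh5*. It was 2.94 and 1.48 for *Vwf* and 6.03 and 18.5 for *Ttn*. Macrophage markers summed to 202.9 to 288.1 CPM, with 1 of 5 (20%) called higher in NR, beside 5.33% of all genes, and none in NRRA.

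Across the 8 libraries, the members fell into patterns of their own. Pearson's r of log2 CPM with *Acta2* was 0.998 for *Myl9*, 0.997 for *Tagln*, 0.964 for *Cnn1* and -0.972 for *Ankrd1*, and r between *Tpm1* and *Fn1* was -0.979. These describe 4 conditions of 2 libraries and the points share those conditions. Among 14797 other genes averaging 50 counts or more, those most like *Acta2* were *Gbp11* (r = 0.998), *Pmp22* (r = 0.998) and *Gm48529* (r = 0.996), the last of which shares exon bases with *Tagln*. *Pmp22* was at 34.4 and 34.9 CPM in Veh, 25.6 and 25.4 CPM in RA, 135.2 and 132.2 CPM in NR, and 245.2 and 242.9 CPM in NRRA. Most like *Ankrd1* were the integrin gene *Itga2* (r = 0.998), *Cyb5b* (r = 0.996) and *Cand1* (r = 0.996), and *Itga2* had means of 48.3 CPM in Veh, 61.3 CPM in RA, 7.59 CPM in NR and 8.41 CPM in NRRA. Most like *Fn1* were *Zfp366* (r = 0.993), *Apol7d* (r = 0.992) and *Clic4* (r = 0.991), and *Apol7d* overlaps 2.5% of the exon bases of *Fn1* on the opposite strand.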

How the data were processed

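RNA-seq libraries of SSC cultures in 4 conditions (Veh, RA, NR and NRRA) of 2 libraries each were analysed, grouped by the sample labels, in which NR is called EBSS. The study calls the libraries independent biological replicates. They were prepared by oligo dT capture with strand selection. The authors deposited whole-number read counts per gene without normalization. The submitters' processing notes name STAR 2.6.1c, featureCounts 1.6.4 and mm10. The use of strand in counting is not given in the sources used here, and the near-equal counts of *Tagln* and *Gm48529* were taken from the table. All 8 count columns matched a library, and 0 had no sample.

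Counts were filtered with filterByExpr and normalized with TMM in edgeR 4.0.16 (R 4.3.3), and all 8 libraries entered a quasi-likelihood fit with a term for each condition (4 residual degrees of freedom, biological coefficient of variation 3.35%). P-values were adjusted by Benjamini-Hochberg over all 20477 genes tested. Standard errors (SE) were obtained as the size of the log2 fold change over the root of its F statistic. The code was tested on simulated data. Coordinates and exon lengths came from GENCODE M21, which held 55240 of the 55421 identifiers, and promoter sequences from RefSeq (GRCm38.p6). DESeq2 1.42.0, other scalings (on total counts, on RLE factors and on the median ratio of 14 fibroblast markers), other filters, a replicate block and leaving out each library were alternatives. Figures were drawn in Python 3.11.15 with matplotlib 3.10.9.

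The members and gene lists were chosen with earlier results of these data known. Named from each list were up to 3 called genes of largest change in NRRA against Veh averaging 50 counts or more. Of the genes that served as a check of retinoic acid, only *Stra8* was named. The SRF, TGF-beta and YAP factors and closest relatives of the members were also named. *Ddx4*, *Dazl*, *Amh*, *Insl3*, *Lhcgr*, *Myod1*, *S100a4*, *Star* and *Axl* were named after their values were seen.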

Additional observations from a re-analysis of the deposited data

Results flagged for a closer look

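The response of *Acta2* to retinoic acid differed between media. Its log2 fold change with retinoic acid was -0.54 (SE 0.05) in complete medium and 0.79 (SE 0.04) under nutrient restriction, each from 2 libraries against 2, and the interaction was 1.33 (SE 0.06, adjusted p = 2.34e-14, edgeR). Both RA libraries were below both Veh libraries, and both NRRA libraries were above both NR libraries. With libraries scaled on the median ratio of the 14 fibroblast markers, whose median log2 fold change against Veh was -0.17 for NRRA, 0.18 for NR and -0.24 for RA, the interaction was 1.57.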

How the results depend on the processing

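Without the fold threshold, 5 of the 9 genes passed in RA against Veh, 8 in NR against Veh, 8 in NRRA against NR, 8 in NRRA against RA and 7 in the interaction. Scaled on fibroblast markers, 3 were called in NR against Veh, 2 in NRRA against NR and 2 in the interaction, beside 9.02%, 12.5% and 3.33% of all genes under that scaling. With it, log2 values turned sign for *Tagln* in RA against Veh (0.0084), *Tpm2* in RA against Veh (0.0732, and 0.0627 with total counts), *Fn1* in NR against Veh (-0.17) and *Ankrd1* in the interaction (0.19). Leaving out 1 library at a time gave -0.0554 to 0.1186 for *Cnn1* in RA against Veh (negative without RA replicate 1) and -0.17 to 0.0733 for *Ankrd1* in the interaction (positive without RA replicate 2 or NRRA replicate 2), none of them with an adjusted p under 0.05, and 0.99 to 1.07 for *Tagln* in NR against Veh, under the threshold without Veh replicate 2 or NR replicate 2. No other value of the 9 genes changed its side of the threshold or its direction under DESeq2, RLE factors, other filters, fits of only the conditions compared or leaving out a library.

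Same-numbered libraries did not deviate together (correlations of -0.0716 to 0.0778), which gave no sign of pairing. With 2 libraries a condition, this check cannot exclude it. A fit with a replicate block called 0, 5, 6, 1, 5 and 1 of the 9 in RA, NR and NRRA against Veh, NRRA against NR, NRRA against RA and the interaction, the counts without it, beside 7.41%, 8.25%, 15.9%, 8.65%, 8.21% and 2.2% of all genes.

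With 2 libraries a condition, the tests rest on a spread shared by all genes and conditions. A lone library left after leaving 1 out is assumed to vary like the others. The shared spread was small (biological coefficient of variation 3.35%), and the p-values are relative to it. Scatter between replicates was unequal, with a chi-square per gene of 3.93 for Veh, the shared reference. It was lower elsewhere, at 2.12 (RA), 1.73 (NRRA) and 1.58 (NR). *Cnn1*, at 41 to 180 counts, has the widest errors.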
